A study of Homo sapiens with 12 samples.

Results

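Glycerophospholipids are built from phosphatidate, and 10 enzymes on that route were followed across 12 RNA libraries labelled HepaRG, a single human hepatic cell line. The enzymes were chosen by name from the deposited table: GPAM, AGPAT2, LPIN1, CHKA, PCYT1A, PCYT2, CEPT1, PTDSS1, PISD and LPCAT1, 10 of 58735 genes. All 10 were found, and all 10 passed the filter on low values (at least 1 FPKM, fragments scaled by gene length and library size, in at least 3 libraries), as did 11856 genes in all. Each of 4 groups had 3 libraries. PA+BMS cells received 400 µM deuterium-labelled palmitate for 4 h and, for 24 h, 50 µM BMS-309403, which blocks the lipid carrier FABP4. PA+OA cells received the same palmitate with 200 µM oleate for 4 h, PA cells palmitate alone for 4 h, and control cells were left untreated. No group received oleate or BMS-309403 without palmitate, and the labels do not say whether controls were given the carrier of any agent. All groups share a wild-type genotype label, and the replicates are not said to be separate cultures, so p-values measure a spread that may be technical.

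Cells make phosphatidate by adding a fatty acid to glycerol 3-phosphate and then another to the lysophosphatidate that results. Phosphatidate is either dephosphorylated to diacylglycerol, which feeds triglyceride, phosphatidylcholine and phosphatidylethanolamine, or activated to CDP-diacylglycerol for phosphatidylinositol and cardiolipin. In liver these routes decide how incoming fatty acid is shared between membranes and stored fat, and acyltransferases of the remodelling cycle later exchange the chains of finished phospholipids. Palmitate is a saturated chain and oleate a monounsaturated one.

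LPCAT1, LPIN1 and CHKA carried the clearest differences. LPCAT1, which puts saturated chains back onto lysophosphatidylcholine, was lower in all 3 palmitate groups than in control and lowest with oleate, at 0.289 of its control mean. LPIN1, which turns phosphatidate into diacylglycerol, was 2.99 times as high in PA+BMS as in control, and CHKA, the first enzyme of phosphatidylcholine synthesis, was 1.66 times as high in PA+BMS as in PA+OA. The other 7 enzymes had 12 calls over 6 comparisons, and 2 of these were also made after removal of the trend that each library's values showed against GC content and gene length.

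The libraries held 16059128 to 19971190 whole reads, recovered from the deposited values. They differed along an axis that followed transcript GC content: on the first principal component, with 54.4% of the variance, PA+OA replicate 1 lay at 54.6 and PA+BMS replicate 3 at -51.5, each apart from its own group. The axis also went with treatment. Every PA and PA+OA library lay at 10.6 or above, and every PA+BMS and control library at -5.70 or below. Control replicate 1 was at -5.70, against -27.1 and -24.6 for control replicates 2 and 3. Together GC content and gene length accounted for 43.3% of the variance of log2 changes over all tested genes where PA was set against control, for 7.79% where PA+OA was set against PA and for 55.7% where PA+BMS was. GC content of the 10 enzymes ranged from 34.9% in CEPT1 to 65.9% in AGPAT2 (median 49.7%, against 49.2% over tested genes). Each result is therefore given as deposited and after trend removal, and where it matters without both libraries named above. Of the markers checked, 1 of 10 hepatocyte genes (CPS1) and 1 of 6 bile duct genes (KRT7) reached 1 FPKM, and ALB, the albumin gene, had no read in any library. The other hepatocyte markers were at most 0.493 FPKM, so this list does not bear out a hepatocyte identity, and the label is taken as given. Summed bile duct markers, nearly all KRT7, were 140 to 185 FPKM in PA+BMS, 519.7 to 917 in PA+OA, 571 to 669 in PA and 477 to 564 in control. The summed hepatocyte markers, nearly all CPS1, were 95.7 to 139 FPKM in PA+BMS, 51.0 to 81.3 in PA+OA, 63.5 to 83.0 in PA and 118 to 147 in control. Summed stellate and fibroblast markers (3 of 6 reached 1 FPKM) were 14.7 to 15.8, 15.8 to 20.3, 20.3 to 20.6 and 19.0 to 21.0 FPKM in the same order of groups, and summed macrophage and endothelial markers were at most 2.20 FPKM in any library. The part of these differences in the results below was not tested, and in bulk RNA fewer cells of a kind and less RNA per cell cannot be told apart.

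FPKM is scaled per gene length but not for GC content, so levels of different enzymes can be set beside each other only roughly. PTDSS1 and AGPAT2 were the most abundant, with medians of 50.1 and 37.4 FPKM over 12 libraries, followed by CHKA at 27.6 and LPCAT1 at 16.5. PTDSS1 ranked first or second of the 10 in every library. PCYT2, PISD and PCYT1A formed a middle set with medians of 9.85, 9.49 and 8.46 FPKM, whose ranges over libraries overlapped. LPIN1, CEPT1 and GPAM were the lowest, with medians of 3.11, 1.72 and 1.55 FPKM, and the ranges of CEPT1 and GPAM over libraries overlapped. PTDSS1 varied least among libraries, 1.47-fold from the lowest to the highest, and LPIN1 most, 5.42-fold, followed by LPCAT1, 4.27-fold. The LPIN1 range rests on the libraries that stand apart, from 1.38 FPKM in PA+OA replicate 1 to 7.48 in PA+BMS replicate 3. The fewest reads behind any value were 138, for GPAM, and the most were 6499, for PTDSS1.

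**Figure D1:**
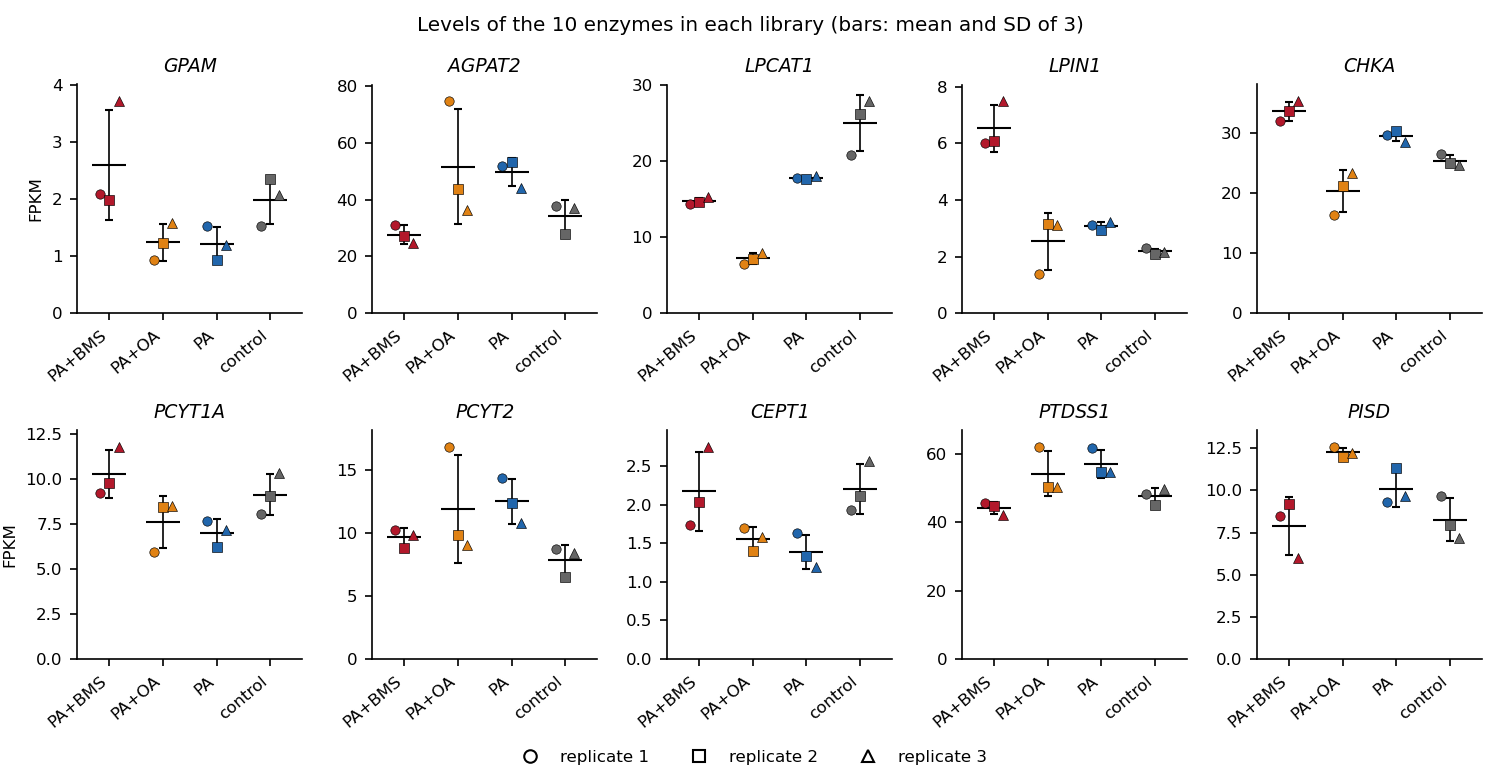
FPKM (vertical axis, from 0) of the 10 enzymes in each library, by group along the horizontal axis, with a symbol per replicate number and bars for the mean and SD of 3 libraries. LPCAT1 lies at 6.53 to 7.98 FPKM in PA+OA, below every other library, and LPIN1 at 6.02 to 7.48 FPKM in PA+BMS, above every other library.

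The acylation steps came out differently in the deposited values and in those with the trend removed. GPAM, the mitochondrial glycerol-3-phosphate acyltransferase that starts the route (ENSG00000119927, chromosome 10, 112149864 to 112215377 on GRCh38, minus strand), had 2.09, 1.98 and 3.71 FPKM in PA+BMS replicates 1, 2 and 3, 0.928, 1.23 and 1.58 in PA+OA, 1.52, 0.929 and 1.19 in PA, and 1.52, 2.35 and 2.07 in control. All PA+BMS libraries were above all PA and PA+OA libraries, and PA+BMS replicate 3 was the highest. GPAM rose in PA+BMS against PA by 0.68 on the log2(FPKM + 1) scale (SE 0.19, limma adjusted p = 0.0139), a scale that understates the change of low genes. It rose by 0.66 against PA+OA (SE 0.19, adjusted p = 0.0167). With the trend removed the changes were 0.16 (adjusted p = 0.259) and 0.16 (adjusted p = 0.225), and neither was called. The rise against PA was also not called without PA+BMS replicate 3 or PA replicate 2 (adjusted p 0.0531 to 0.0564), nor the rise against PA+OA without PA+BMS replicate 3 or PA+OA replicate 1 (adjusted p 0.0631 to 0.0665). Leaving out both libraries that stand apart gave 0.34 against PA+OA (adjusted p = 0.152). GPAM was at -0.43 in PA against control (adjusted p = 0.1005).

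AGPAT2, which adds the next chain to make phosphatidate and whose loss causes a human lipodystrophy (ENSG00000169692, chromosome 9, 136673143 to 136687423, minus strand), had 31.2, 27.3 and 24.6 FPKM in PA+BMS, 74.6, 43.9 and 36.4 in PA+OA, 52.0, 53.4 and 44.0 in PA, and 37.7, 27.8 and 37.1 in control. PA+BMS lay below PA and PA+OA without overlap, and PA+OA replicate 1 stood far above the other libraries of its group. AGPAT2 fell by 0.83 on the log2 scale in PA+BMS against PA (SE 0.22, adjusted p = 0.0121) and by 0.82 against PA+OA (SE 0.22, adjusted p = 0.0135). Neither fall was called with the trend removed (-0.20, adjusted p = 0.224, and -0.13, adjusted p = 0.390). Without PA+BMS replicate 3 the fall against PA+OA was at an adjusted p of 0.0530. Leaving out both libraries that stand apart gave -0.44 (adjusted p = 0.0755). In PA against control the change of 0.54 (SE 0.22) did not pass the test (adjusted p = 0.0851), although it did without both libraries that stand apart (adjusted p = 0.00679).

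LPIN1, lipin-1, is the phosphatidate phosphatase at the branch to diacylglycerol and also acts as a transcriptional coactivator (ENSG00000134324, chromosome 2, 11677595 to 11827409, plus strand). It had 6.02, 6.08 and 7.48 FPKM in PA+BMS, 1.38, 3.14 and 3.11 in PA+OA, 3.11, 2.95 and 3.21 in PA, and 2.29, 2.10 and 2.16 in control. PA+BMS was above all 9 other libraries, PA was above control without overlap, and PA+OA replicate 1 was the lowest library of all. LPIN1 rose in PA+BMS against control by 1.24 on the log2 scale (SE 0.18, limma adjusted p = 0.00130), against PA by 0.87 (SE 0.18, adjusted p = 0.00528) and against PA+OA by 1.13 (SE 0.18, adjusted p = 0.00143). The calls held in each of 12 fits with 1 library left out. With the trend removed they were 1.15 (adjusted p = 7.05e-05), 0.65 (adjusted p = 0.00647) and 0.78 (adjusted p = 0.000899). In PA against control the change was 0.36 (SE 0.18, adjusted p = 0.136) as deposited. It was called at the same size without both libraries that stand apart (adjusted p = 0.00199) and at 0.50 with the trend removed (adjusted p = 0.0146). PA+OA against PA gave -0.25 (adjusted p = 0.502), or 0.01 without those libraries (adjusted p = 0.923). The tested genes in the same GC bin as LPIN1 (46.4% to 47.7% GC) had a median change of 0.15 in PA+BMS against PA, with an interquartile range of -0.14 to 0.41.

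RefSeq lists 3 starts for LPIN1, and the gene-level values do not tell them apart. Their promoters are shown because LPIN1 had the largest rise of the 10 enzymes. Each is the 250 bases upstream of a RefSeq start, 5′ to 3′ on the plus strand of GRCh38.p14: promoter 2 at chr2:11677294-11677543, promoter 3 at chr2:11724065-11724314 and promoter 1 at chr2:11746382-11746631.

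LPIN1 promoter 2: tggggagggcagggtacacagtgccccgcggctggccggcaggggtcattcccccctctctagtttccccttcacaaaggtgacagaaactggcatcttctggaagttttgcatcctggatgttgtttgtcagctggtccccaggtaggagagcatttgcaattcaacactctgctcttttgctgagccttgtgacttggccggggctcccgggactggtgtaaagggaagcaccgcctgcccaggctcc

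LPIN1 promoter 3: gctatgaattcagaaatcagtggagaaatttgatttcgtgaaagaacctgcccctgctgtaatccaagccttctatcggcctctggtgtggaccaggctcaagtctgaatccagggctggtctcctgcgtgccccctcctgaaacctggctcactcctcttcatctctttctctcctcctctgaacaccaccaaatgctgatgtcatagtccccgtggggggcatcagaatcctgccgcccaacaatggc

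LPIN1 promoter 1: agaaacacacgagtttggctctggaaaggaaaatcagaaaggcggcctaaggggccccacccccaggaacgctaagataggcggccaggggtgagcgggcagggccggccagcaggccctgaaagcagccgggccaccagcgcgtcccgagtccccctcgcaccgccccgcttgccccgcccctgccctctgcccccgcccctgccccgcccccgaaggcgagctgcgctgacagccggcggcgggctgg

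Their GC content was 58.4%, 53.2% and 72.4%, against a median of 58.0% over 35116 promoters. They were searched on both strands for 4 motifs: the amino acid response element TGATGNAA, the E-box CACGTG, the CCAAT box and the sterol regulatory element TCACNCCAC. None of these letters occurred in the 3 windows, where any match would stand in capitals. Of all 35116 promoters, 3.14%, 6.34%, 32.0% and 0.883% held the motifs in that order.

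The choline branch opened with a fall under oleate whose call depended on the scaling. CHKA, choline kinase alpha, phosphorylates choline as the first step (ENSG00000110721, chromosome 11, 68052859 to 68121444, minus strand). It had 32.1, 33.7 and 35.3 FPKM in PA+BMS, 16.4, 21.3 and 23.4 in PA+OA, 29.8, 30.3 and 28.6 in PA, and 26.6, 25.1 and 24.7 in control. The 4 groups did not overlap one another, with PA+OA below control and PA and PA+BMS above it. CHKA fell by 0.53 in PA+OA against PA (SE 0.12, limma adjusted p = 0.0200), and also by 0.53 with the trend removed (adjusted p = 0.0235). This call was lost without PA replicate 1, 2 or 3 (adjusted p 0.0533 to 0.0786), and without the libraries that stand apart it was a fall by 0.39 (adjusted p = 0.00611). It was also lost with totals set equal (-0.49, adjusted p = 0.147), quantile normalization (-0.43, adjusted p = 0.103) and limma-voom (-0.51, adjusted p = 0.0985). In PA+BMS against PA+OA CHKA rose by 0.71 (SE 0.12, adjusted p = 0.00188), and by 0.93 with the trend removed (adjusted p = 0.000769). In PA+BMS against PA the change of 0.18 was not called as deposited. There it was called with totals set equal (0.55, adjusted p = 0.0247), quantile normalization (0.53, adjusted p = 0.0153) and limma-voom (0.46, adjusted p = 0.0316). The change of 0.39 in PA+BMS against control was not called as deposited (adjusted p = 0.0610) and was called at 0.43 with the trend removed (adjusted p = 0.0440). CHKA in PA against control was at 0.21 ± 0.12 (SE, adjusted p = 0.191).

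PCYT1A, the enzyme that makes CDP-choline and limits the rate of phosphatidylcholine synthesis (ENSG00000161217, chromosome 3, 196214222 to 196287957, minus strand), had 9.23, 9.77 and 11.8 FPKM in PA+BMS, 5.93, 8.42 and 8.49 in PA+OA, 7.68, 6.23 and 7.15 in PA, and 8.04, 9.05 and 10.3 in control. PA+BMS was above PA and PA+OA without overlap, and PA was below control without overlap. PCYT1A rose in PA+BMS against PA by 0.49 (SE 0.15, limma adjusted p = 0.0178), and by 0.27 with the trend removed (adjusted p = 0.0345). Without PA replicate 2 or PA+BMS replicate 3 this call was lost (adjusted p 0.0694 to 0.0724). Its rise of 0.39 against PA+OA (SE 0.15, adjusted p = 0.0431) was not called with the trend removed (0.11, adjusted p = 0.309) and was lost in 7 of 12 fits with 1 library left out (adjusted p 0.0507 to 0.154): those without a PA library, PA+OA replicate 1, PA+BMS replicate 2 or 3, or control replicate 2. Without both libraries that stand apart it was 0.15 (adjusted p = 0.374). In PA against control PCYT1A was at -0.34 (adjusted p = 0.0975).

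CEPT1 catalyses the last step of both the choline and the ethanolamine branch (ENSG00000134255, chromosome 1, 111139627 to 111185102, plus strand). It had 1.74, 2.03 and 2.74 FPKM in PA+BMS, 1.69, 1.41 and 1.58 in PA+OA, 1.63, 1.34 and 1.20 in PA, and 1.94, 2.11 and 2.57 in control. PA was below control and PA+BMS above PA without overlap. CEPT1 fell by 0.42 in PA against control (SE 0.14, limma adjusted p = 0.0383) and rose by 0.40 in PA+BMS against PA (SE 0.14, adjusted p = 0.0272). With the trend removed neither was called and the second turned negative (-0.04, adjusted p = 0.855, and -0.09, adjusted p = 0.600). Genes in its GC bin had median changes of -0.34 and 0.44 in these comparisons, and CEPT1 lay inside their interquartile range in both. The fall was lost without any one PA library, PA+BMS replicate 2 or control replicate 2 or 3 (adjusted p 0.0516 to 0.135), and the rise without PA replicate 2 or 3 or PA+BMS replicate 3 (adjusted p 0.0753 to 0.105). Under quantile normalization they were -0.32 (adjusted p = 0.0821) and 0.25 (adjusted p = 0.125). Both were called with totals set equal (-0.60, adjusted p = 0.0135, and 0.65, adjusted p = 0.00543). They were also called with limma-voom on recovered reads (-0.85, adjusted p = 0.00847, and 0.90, adjusted p = 0.00329) and with the replicate block (adjusted p = 0.0334 and 0.0271). CEPT1 overlaps DRAM2 on the other strand (up to 8.29 FPKM), so shared reads are uncertain.

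PCYT2 limits the rate of phosphatidylethanolamine synthesis through CDP-ethanolamine (ENSG00000185813, chromosome 17, 81900965 to 81911464, minus strand). It had 10.3, 8.85 and 9.86 FPKM in PA+BMS, 16.8, 9.84 and 9.06 in PA+OA, 14.4, 12.4 and 10.8 in PA, and 8.74, 6.51 and 8.41 in control. All 3 groups given palmitate lay above control without overlap. PCYT2 rose in PA against control by 0.61 (SE 0.20, limma adjusted p = 0.0392), and it was at 0.32 with the trend removed (adjusted p = 0.0878). This call was lost in 7 of 12 fits that left out a library: any PA library, control replicate 2 or 3, or PA+BMS replicate 1 or 2 (adjusted p 0.0501 to 0.153). With totals set equal it was 0.35 (adjusted p = 0.0609). In PA+BMS against control PCYT2 was at 0.27 as deposited (adjusted p = 0.409) and rose by 0.41 with the trend removed (adjusted p = 0.0335). PCYT2 overlaps ANAPC11, a gene of up to 59.0 FPKM on the other strand, so shared reads are uncertain. The promoters searched for the enzymes were 13 RefSeq windows from 8 of the 10, and promoters of the remaining enzymes were not among them. Of the 13, the first of PCYT2 was the one with more than 1 motif. It is shown for that reason (chr17:81911400-81911649, minus strand, GRCh38.p14, GC content 80.0%).

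PCYT2 promoter 1: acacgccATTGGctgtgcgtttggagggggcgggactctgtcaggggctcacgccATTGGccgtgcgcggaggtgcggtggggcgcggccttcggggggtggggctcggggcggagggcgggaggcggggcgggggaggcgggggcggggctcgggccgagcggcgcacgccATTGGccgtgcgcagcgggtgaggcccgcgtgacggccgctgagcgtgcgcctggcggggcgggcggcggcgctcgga

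Capitals mark CCAAT boxes, read on the reverse strand as ATTGG, at positions -243, -195 and -78 from the start. PISD promoter 2 held 1 CCAAT box, and the other 11 promoters held none of the 4 motifs. A match is a description of the letters and not a site of binding, and the absence of one says only that these letters are not in the window.

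Phosphatidylserine is made and used by the next pair. PTDSS1, phosphatidylserine synthase 1, exchanges serine for choline (ENSG00000156471, chromosome 8, 96261715 to 96336995, plus strand). It had 45.7, 44.8 and 42.2 FPKM in PA+BMS, 61.9, 50.4 and 50.3 in PA+OA, 61.8, 54.6 and 54.6 in PA, and 48.4, 45.2 and 49.8 in control. PA+BMS was below PA and PA+OA without overlap. PTDSS1 fell by 0.36 in PA+BMS against PA (SE 0.11, limma adjusted p = 0.0212; by 0.49 with the trend removed, adjusted p = 0.0220), a direction that turned to 0.02 with library totals set equal (adjusted p = 0.892) and to 0.03 under quantile normalization (adjusted p = 0.786). With limma-voom on recovered reads it was -0.09 (adjusted p = 0.413). Setting totals equal moved the median of all genes in this comparison to 0.24, against -0.04 as deposited. The call was also lost without PA replicate 1 or 2 or PA+BMS replicate 3 (adjusted p 0.0501 to 0.0786).

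PISD decarboxylates phosphatidylserine to phosphatidylethanolamine in mitochondria (ENSG00000241878, chromosome 22, 31618491 to 31662432, minus strand). It had 8.50, 9.19 and 5.96 FPKM in PA+BMS, 12.6, 12.005 and 12.2 in PA+OA, 9.33, 11.4 and 9.65 in PA, and 9.70, 7.95 and 7.17 in control. PA+OA was above all 9 other libraries and varied least. PISD rose in PA+OA against control by 0.53 (SE 0.15, limma adjusted p = 0.0181), which was at 0.29 with the trend removed (adjusted p = 0.0891) and was not called without control replicate 2 or 3 (adjusted p 0.0629 to 0.0796). It fell by 0.60 in PA+BMS against PA+OA (SE 0.15, adjusted p = 0.00971), a call held in each of 12 fits with 1 library left out, and was at -0.29 with the trend removed (adjusted p = 0.0981). With totals set equal the changes were 0.31 against control (adjusted p = 0.152) and -0.29 against PA+OA (adjusted p = 0.153), and neither was called with limma-voom (adjusted p = 0.0773 and 0.0624). PISD overlaps SFI1 on the other strand (up to 5.86 FPKM), so shared reads are uncertain.

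LPCAT1 belongs to the remodelling cycle, where it acylates lysophosphatidylcholine with a preference for saturated chains, and it is known for making the dipalmitoyl lipid of lung surfactant (ENSG00000153395, chromosome 5, 1456480 to 1523977, minus strand). It had 14.3, 14.6 and 15.2 FPKM in PA+BMS, 6.53, 7.15 and 7.98 in PA+OA, 17.9, 17.7 and 18.1 in PA, and 20.9, 26.3 and 27.9 in control. The 4 groups did not overlap, in the order control, PA, PA+BMS and PA+OA from high to low. LPCAT1 fell by 1.66 on the log2 scale in PA+OA against control (SE 0.12, limma adjusted p = 2.44e-06), by 1.20 in PA+OA against PA (SE 0.12, adjusted p = 0.000108) and by 0.72 in PA+BMS against control (SE 0.12, adjusted p = 0.00234). With the trend removed these falls were 1.77, 1.13 and 0.69 (adjusted p = 1.12e-06, 0.000161 and 0.00209), and all 3 were called in every fit that left out a library. LPCAT1 rose by 0.94 in PA+BMS against PA+OA (SE 0.12, adjusted p = 0.000323), also called with the trend removed (adjusted p = 0.000138). In PA against control it fell by 0.45 (SE 0.12, adjusted p = 0.0182; by 0.64 with the trend removed, adjusted p = 0.00500), a call lost without PA replicate 1 or 2 or control replicate 2 or 3 (adjusted p 0.0532 to 0.0821). The change of -0.26 in PA+BMS against PA was not called (adjusted p = 0.0710), and it was -0.05 with the trend removed (adjusted p = 0.768). Genes in the GC bin of LPCAT1 (52.2% to 53.7% GC) had a median change of -0.05 in PA+OA against PA, with an interquartile range of -0.23 to 0.13.

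The LPCAT1 promoter is shown because the gene had the largest fall of the 10 enzymes. It is the 250 bases upstream of its RefSeq start (chr5:1523961-1524210, minus strand, GRCh38.p14), with a GC content of 78.8%, and it held none of the 4 motifs.

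LPCAT1 promoter 1: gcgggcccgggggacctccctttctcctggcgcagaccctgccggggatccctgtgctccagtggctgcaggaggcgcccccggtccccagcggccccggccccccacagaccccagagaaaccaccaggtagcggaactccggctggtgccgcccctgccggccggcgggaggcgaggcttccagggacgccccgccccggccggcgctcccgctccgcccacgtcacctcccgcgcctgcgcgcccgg

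**Figure D2:**
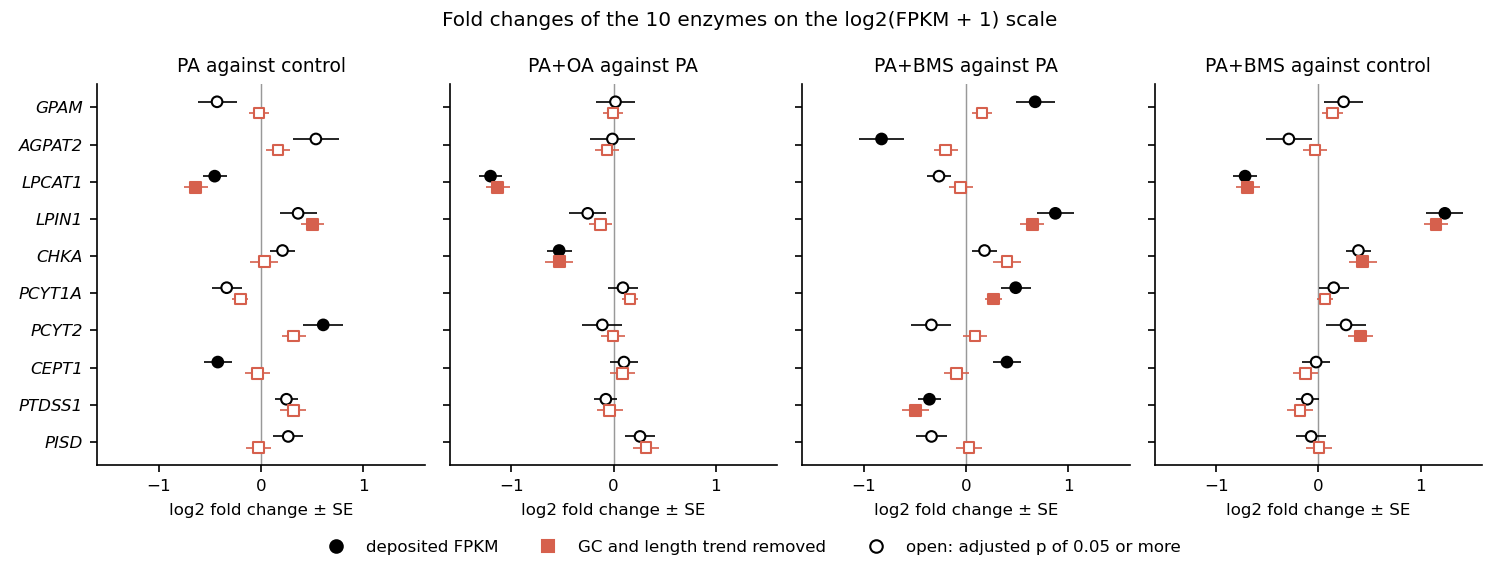
Log2 fold change ± SE on the log2(FPKM + 1) scale (horizontal axis) of each enzyme in 4 comparisons, from deposited FPKM (black circles) and after removal of each library's GC and length trend (red squares), filled where the adjusted p is under 0.05. LPCAT1 in PA+OA against PA and LPIN1 in PA+BMS against PA and against control are filled in both, while in PA+BMS against PA the values of GPAM and AGPAT2 are nearer 0 after trend removal and that of CEPT1 is on the other side of 0 (0.40 and -0.09).

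Palmitate alone was tested in PA against control. There 1 enzyme rose (PCYT2) and 2 fell (LPCAT1 and CEPT1), 3 of 10, against 27.6% of all tested genes called (12.8% rose and 14.8% fell). The median change of the enzymes was 0.23, against 0.03 over all tested genes, and it was 0.0065 after trend removal, 0.04 after quantile normalization and -0.04 with equal totals. Equal totals gave 0 enzymes that rose and 3 that fell, against 4.38% and 24.5% of all genes. The count of 3 was 9 without both libraries that stand apart, where 56.7% of all genes were called, 8 without PA+OA replicate 1 alone, and 0 without PA replicate 1, PA replicate 2, control replicate 2 or control replicate 3. Without PA replicate 3 or PA+BMS replicate 2 it was 1. Over all tested genes, 795 to 5336 were called when 1 library was left out. With the trend removed it was 2, LPCAT1 and LPIN1, against 16.4% of all genes.

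What oleate added was tested in PA+OA against PA. There 0 enzymes rose and 2 fell (LPCAT1 and CHKA), against 7.91% of all tested genes called (4.01% rose and 3.91% fell). The same pair was called with the trend removed, against 13.4% of all genes. The count was 1 without any one of the PA libraries, while 473 to 1946 of all tested genes were called when a library was left out. The median change was -0.04 for the enzymes and -0.0024 for all tested genes.

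What the inhibitor added was tested in PA+BMS against PA. There 4 enzymes rose (LPIN1, GPAM, PCYT1A and CEPT1) and 2 fell (AGPAT2 and PTDSS1, the second not called with totals set equal, quantile normalization or limma-voom), 6 of 10, against 54.5% of all tested genes called (25.2% rose and 29.4% fell), a share near that of all genes. With the trend removed 3 were called, LPIN1, PCYT1A and PTDSS1, against 23.2% of all genes. The count was 2 without PA replicate 2 or PA+BMS replicate 3, while 3687 to 7414 of all tested genes were called when a library was left out. Equal totals gave 5 that rose and 1 that fell, against 38.6% and 10.1% of all genes. The median changes were -0.04 for the enzymes and -0.04 for all tested genes, or 0.32 and 0.24 with totals set equal.

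Against untreated cells, 1 enzyme rose (PISD) and 1 fell (LPCAT1) in PA+OA, against 36.3% of all tested genes called (17.5% rose and 18.8% fell). That count was 5 without PA+OA replicate 3, 4 without PA+BMS replicate 3 and 1 without control replicate 2 or 3. Over all tested genes, 2486 to 5029 were called there when a library was left out. It was 3 with the trend removed (LPCAT1, CHKA and LPIN1), against 38.3% of all genes. With totals set equal 0 rose and 3 fell, against 10.4% and 27.6%. The replicate number was tried as a block here because all 3 same-numbered pairs of PA+OA and control libraries deviated together. That pattern was found in these data and is not given by the labels. With the block, fitted over all 12 libraries, 5 enzymes were called, against 44.2% of all genes. These were LPCAT1 and PISD with AGPAT2 (0.53, limma adjusted p = 0.0366), PCYT2 (0.50, adjusted p = 0.0209) and CHKA (-0.32, adjusted p = 0.0483). Of the enzymes in PA+BMS, 1 rose (LPIN1) and 1 fell (LPCAT1), against 11% of all tested genes (4.77% rose and 6.25% fell), and 4 were called with the trend removed (these with CHKA and PCYT2), against 19.2% of all genes. The comparisons with control share the control libraries, as those with PA share the PA libraries. Set against PA+OA, PA+BMS gave 5 enzymes that rose (LPCAT1, LPIN1, CHKA, GPAM and PCYT1A) and 2 that fell (AGPAT2 and PISD), 7 of 10, against 49.6% of all tested genes (23.1% rose and 26.4% fell). There 4 were called without PA+BMS replicate 3, and 3017 to 6290 of all genes when a library was left out. Without both libraries that stand apart 4 were called, against 21.7% of all genes. With the trend removed 4 were called (LPCAT1, LPIN1, CHKA and PTDSS1), against 33.9% of all genes. With totals set equal 6 rose and 1 fell, against 38.6% and 12.6%. Over all 60 tests, 22 changes were called as deposited and 18 with the trend removed, of which 12 were the same gene in the same comparison.

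**Figure D3:**
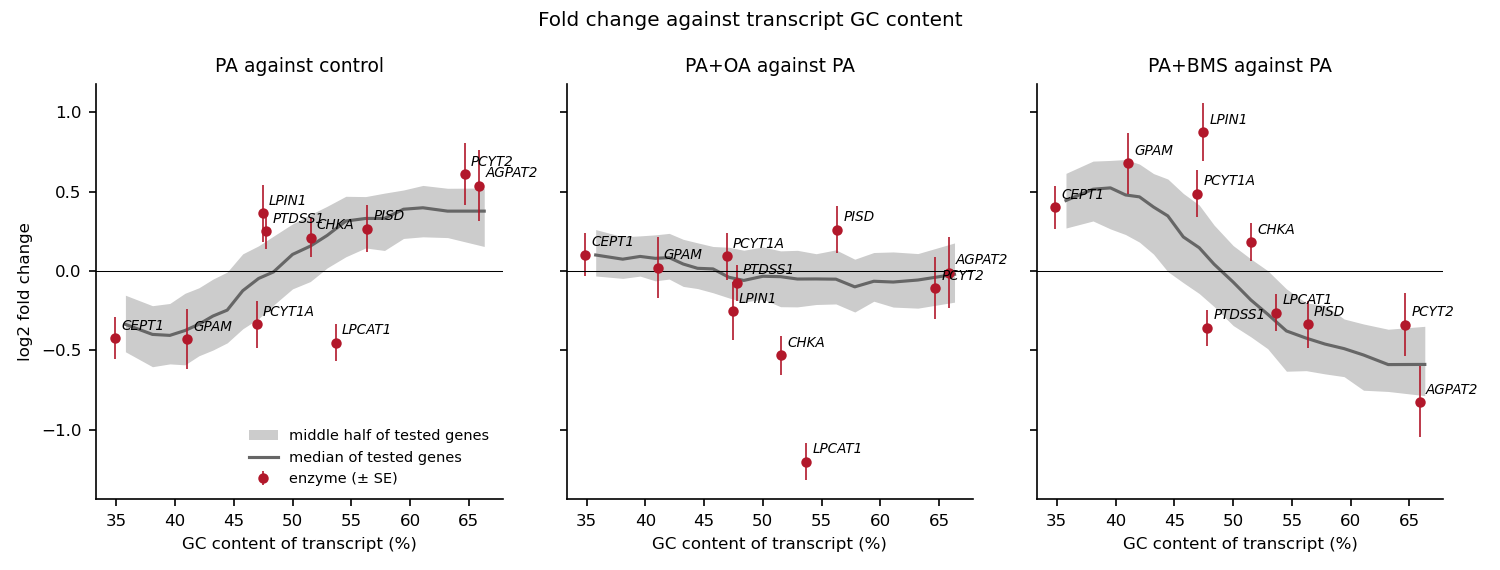
Log2 fold change (vertical axis) against the GC content of the longest transcript (horizontal axis, %) in 3 comparisons, with the median and interquartile range of tested genes in 20 GC bins (grey) and each enzyme ± SE (red). LPCAT1 lies below the grey band in PA against control (-0.45) and in PA+OA against PA (-1.20), and LPIN1 above it in PA+BMS against PA (0.87), while the band itself goes up with GC content where PA is set against control and down where PA+BMS is set against PA.

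The rest of the route was read from a list of 42 further genes, of which 35 were tested. Palmitate alone gave 6 that rose and 6 that fell, against 12.8% and 14.8% of all tested genes. With the trend removed 3 rose and 1 fell, against 16.4% of all genes called in either direction. Those named are the called genes among the 6 smallest p in a comparison. LPCAT3, which adds polyunsaturated chains to lysophospholipids, rose by 0.61 (SE 0.12, limma adjusted p = 0.00737), and by 0.42 with the trend removed. SLC44A2, a choline transporter-like protein, rose by 0.47, the lysophosphatidate acyltransferase AGPAT1 by 0.46 and the endoplasmic reticulum acyltransferase GPAT4 by 0.29. LPGAT1, a lysophospholipid acyltransferase, fell by 0.67 and GPD1L, related to glycerol-3-phosphate dehydrogenase, by 0.57. Of these 6, LPCAT3 and GPD1L were also called with the trend removed, and LPCAT3 alone held in each of 12 fits with 1 library left out. The calls of SLC44A2, AGPAT1 and LPGAT1 were lost without PA replicate 1 or 2 or control replicate 2 or 3, that of GPD1L without PA replicate 2 or control replicate 2 or 3, and that of GPAT4 in 9 of the 12 fits.

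GPAT3, the glycerol-3-phosphate acyltransferase of the endoplasmic reticulum and so a counterpart of GPAM, averaged 3.29 ± 0.239 FPKM in PA+BMS, 2.19 ± 0.168 in PA+OA, 1.35 ± 0.265 in PA and 0.835 ± 0.218 in control (SD, n = 3 each). Its 4 groups were in the order of these means and did not overlap. GPAT3 rose in PA+BMS against control by 1.23 (SE 0.12, limma adjusted p = 0.000133), against PA by 0.87 (SE 0.12, adjusted p = 0.00172), and in PA+OA against control by 0.80 (SE 0.12, adjusted p = 0.000590). These 3 calls held in each of 12 fits with 1 library left out and after trend removal (1.20, 0.66 and 0.89). In PA+OA against PA its rise of 0.45 (adjusted p = 0.0466) was called in 2 of 12 fits that left out a library and was not called with the trend removed (0.35, adjusted p = 0.0659).

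With oleate, SLC44A2 averaged 34.6 ± 4.93 FPKM in PA+OA, against 22.6 ± 2.47 in PA and 16.05 ± 1.14 in control (SD, n = 3 each). It rose by 0.59 in PA+OA against PA (SE 0.12, limma adjusted p = 0.0109) and by 1.06 against control (SE 0.12, adjusted p = 8.09e-05), and both were called with the trend removed. The rise against PA was lost without PA replicate 3 (adjusted p = 0.0554). The lysophosphatidate acyltransferase AGPAT3 fell by 0.46 in PA+OA against PA, which was not called with the trend removed (adjusted p = 0.0518) or in 5 of the 12 fits, those without a PA library or without PA+OA replicate 2 or 3. Against control AGPAT3 fell by 0.44 and its relative AGPAT5 by 0.65, LPGAT1 fell by 0.68 and LPCAT3 rose by 0.48, and all 4 were also called with the trend removed. Of these, AGPAT5 held in all 12 fits, while AGPAT3 was lost without control replicate 3, LPCAT3 without control replicate 2 and LPGAT1 without PA+OA replicate 1 or control replicate 2. In all, 2 of the 35 rose and 1 fell in PA+OA against PA, against 4.01% and 3.91% of all tested genes, and 3 rose and 5 fell in PA+OA against control, against 17.5% and 18.8%.

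Adding the inhibitor to palmitate gave 12 of the 35 that rose and 10 that fell, against 25.2% and 29.4% of all tested genes. With the trend removed 6 rose and 4 fell, against 23.2% of all genes called in either direction. Besides GPAT3, the choline transporter SLC44A1 rose by 0.80 (SE 0.14, limma adjusted p = 0.00372) and LPGAT1 by 0.94. CTDNEP1, the phosphatase that activates lipins, fell by 0.75 (SE 0.15, adjusted p = 0.00499), MBOAT7, which acylates lysophosphatidylinositol, by 0.68 and CDIPT, phosphatidylinositol synthase, by 0.66. All 5 held in the 12 fits that left out a library, and SLC44A1, LPGAT1 and MBOAT7 were also called with the trend removed. GPAT3 was the 1 gene of the 35 called in PA+BMS against control, against 11% of all tested genes. In PA+BMS against PA+OA 10 rose and 6 fell, against 23.1% and 26.4% of all tested genes. Without both libraries that stand apart 4 rose and 1 fell there, against 21.7% of all genes called in either direction. In that comparison SLC44A2 fell by 0.83, and LPGAT1 rose by 0.95, AGPAT5 by 0.82, SLC44A1 by 0.76, GPD1L by 0.68 and LPCAT2, another acyltransferase of lysophosphatidylcholine, by 0.52. These 6 held in all 12 fits, but GPD1L (adjusted p = 0.0571) and LPCAT2 (adjusted p = 0.0747) were not called without both libraries that stand apart. SLC44A2, LPGAT1, AGPAT5 and GPD1L were also called with the trend removed. With totals set equal 1 of these 35 rose and 6 fell in PA against control, against 4.38% and 24.5% of all genes. In PA+BMS against PA the split was 14 and 4, against 38.6% and 10.1%. In PA+BMS against PA+OA it was 18 and 1, against 38.6% and 12.6%.

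**Figure D4:**
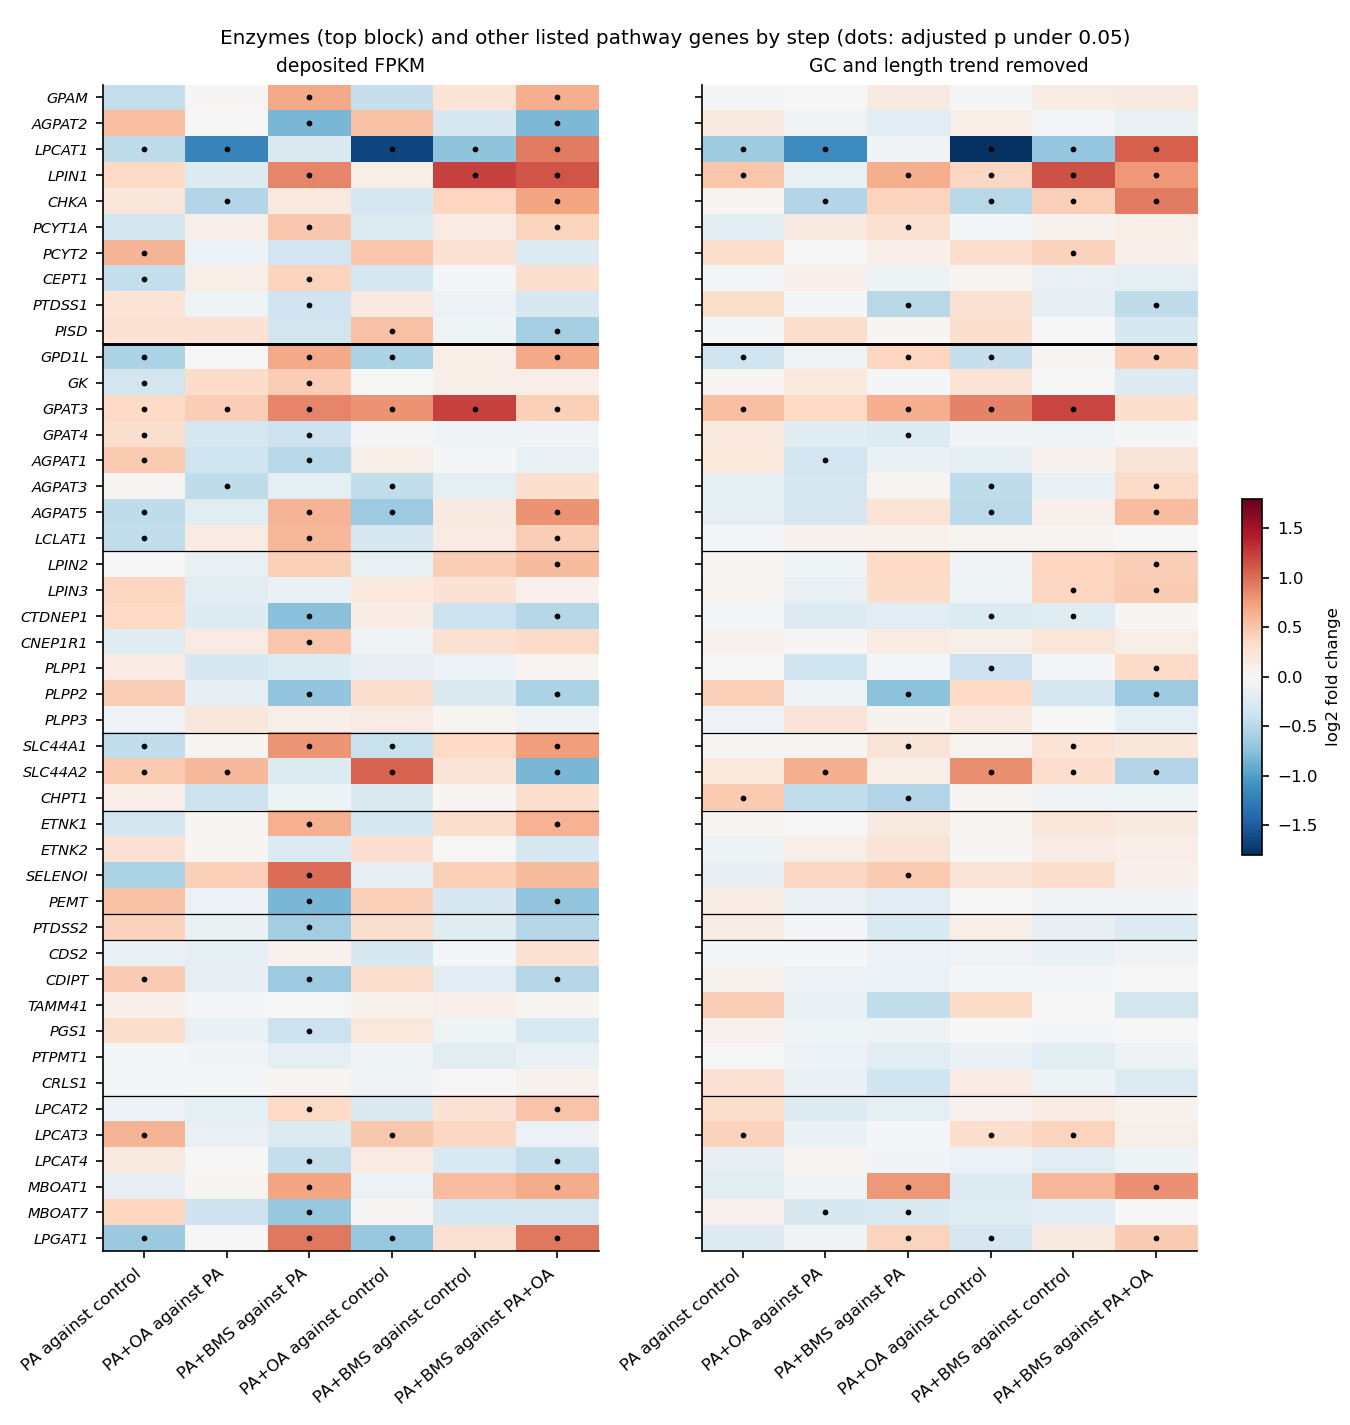
Log2 fold changes (colour, red higher and blue lower) of the 10 enzymes (top block) and 35 tested genes of the other steps (rows) in 6 comparisons (columns), from deposited FPKM on the left and after GC and length trend removal on the right, with a dot where the adjusted p is under 0.05. Many dots in PA+BMS against PA are absent on the right, while those of LPCAT1 in PA+OA against PA and of LPIN1 and GPAT3 in PA+BMS against PA appear in both panels.

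Likeness of pattern is given for each enzyme other than PCYT1A as the highest Pearson r of log2(FPKM + 1) over the 12 libraries among 10124 tested protein-coding genes, a description over points that share libraries and groups. The gene most like LPCAT1 was ZBTB7A, at 0.99 as deposited and 0.98 with the trend removed. The gene most like PCYT2 was RPS6KA1 (0.99, and 0.96 with the trend removed), for PISD it was HOXB2 (0.98 and 0.95), for LPIN1 NBPF1 (0.98 and 0.93) and for CHKA LIMD1 (0.96 and 0.92). For GPAM it was XPR1 (0.99 and 0.87), for PTDSS1 EIF3I (0.99 and 0.81) and for AGPAT2 ZNHIT1 (0.99 and 0.71). The likeness of CEPT1 to CAPZA1 went down to 0.04 with the trend removed (0.98 as deposited).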

How the data were processed

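RNA-seq was done on 12 libraries labelled HepaRG, 3 in each of 4 groups given by the treatment label. The deposited table holds FPKM values for 58735 genes, whose identifiers, names and coordinates equal those of GENCODE 29 on GRCh38. Tools listed in the submitters' processing notes, with no roles, are featureCounts 1.5.0-p3, HISAT2 2.0.5 and CASAVA. The sources used here do not give the genome build. FPKM times gene length came out as a whole multiple of 1 step for every value (tolerance 0.001), which recovered the reads. The library size behind the deposited FPKM, read from that step, was not the read total: it was 1.09 to 1.14 times the total in PA+BMS, 0.827 to 1.03 in PA+OA, 0.888 to 0.976 in PA and 1.03 to 1.10 in control, so the FPKM carry a scaling that differs between groups. Setting totals equal divides each library by its summed FPKM, not by its reads. It cancels any such factor and moves the median log2 change of all genes in PA+BMS against PA to 0.24, against -0.04 as deposited. Under median-of-ratios scaling that median was -0.0043, and 6 enzymes were called there, the same count as deposited. As deposited, 54.5% of all tested genes were called in that comparison, so this count is not particular to the enzymes.

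The enzymes and the list of 42 further genes were chosen with earlier results of these data known. Further genes were named where they were called and among the 6 smallest p of a comparison. Log2(FPKM + 1) of genes with at least 1 FPKM in at least 3 libraries was fitted with limma 3.58.1 in R 4.3.3, with 1 coefficient per group, all 12 libraries, 8 residual degrees of freedom and a variance trend. P-values are two-sided and adjusted by Benjamini-Hochberg over 11856 genes, with calls under 0.05. Trend removal subtracted, in each library, natural splines (5 degrees of freedom each) of transcript GC content and log2 gene length, for 11848 genes. The alternatives were another pseudocount, filter, scaling, set of groups, limma-voom on recovered reads, a replicate block, and leaving out libraries. The labels do not say what a replicate number shares. Same-numbered libraries deviated together in all 3 pairs (correlation over 0.1) for PA+OA and control (0.49, 0.27 and 0.16) and in no other pair of groups, so the block is given beside that comparison. PA+OA replicate 3 also correlated with control replicate 2 (0.40), so the numbers may not mark a pairing. The fit was also run on simulated reads that held no GC trend and no library that stands apart, so that run does not bear on those features. Figures were drawn with matplotlib 3.10.9. The gene most like PCYT1A is not reported here.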

Additional observations from a re-analysis of the deposited data

How the results depend on the processing

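Beside the counts given with each comparison, the number of the 10 enzymes called depended on the settings as follows. In PA against control 3 were called, 1 with no filter, 7 with only those groups in the fit, 9 without both libraries that stand apart, and 0 to 8 when a library was left out. In PA+OA against PA 2 were called, 1 with totals set equal, with quantile normalization, with only those groups or with limma-voom on recovered reads, and 1 to 2 when a library was left out. In PA+BMS against PA 6 were called, 3 with the GC and length trend removed and 2 to 8 when a library was left out. In PA+OA against control 2 were called, 5 with the replicate block, with or without the trend removed, 4 without both libraries and 1 to 5 when a library was left out. In PA+BMS against control 2 were called, 4 with the trend removed, with or without the block, and 2 to 3 when a library was left out. In PA+BMS against PA+OA 7 were called, 4 with only those groups, with the trend removed, with or without the block, or without both libraries, and 4 to 8 when a library was left out. In PA against control the median enzyme change was 0.23 in the main fit, and also 0.23 with PA+OA replicate 1 and PA+BMS replicate 3 dropped. Neither library belongs to the groups compared there, so dropping them alters only the pooled spread, and 9 enzymes were called in place of 3. Beyond that, the cause of these shifts was not tested. The called rise of CEPT1 in PA+BMS against PA turned to -0.0899 with the trend removed (limma adjusted p = 0.600, and 0.598 with the block), and the called fall of PTDSS1 turned to 0.0155 with totals set equal and 0.0290 with quantile normalization. Among alternative values of called changes, 436 kept direction and call, 84 lost the call and 4 reversed. Of the values of changes that were not called, 775 kept their side, 72 became called and 57 changed sign without a call in either fit. With a filter at 5 FPKM, GPAM and CEPT1 were not tested. Outside PA+OA and control, no pair of groups had all 3 same-numbered pairs at a correlation of deviations over 0.1. Single pairs were high there, such as PA+OA and PA+BMS replicates 1 (0.50) and 3 (0.56), while replicates 2 were at -0.14. Over all groups, PA+OA and control included, 9 of 18 same-numbered pairs were over 0.1, with a range of -0.28 to 0.56. Of the 12 libraries, 9 correlated best with their own number, a hint from the data and not the design. Whether the numbers mark a pairing is not settled. Of differently numbered pairs, 13 of 36 were over 0.1, with a range of -0.54 to 0.40. In the comparisons other than PA+OA against control, the block gave 4, 2, 8, 2 and 8 enzymes called, in the order above. The block called 7083 of 11856 tested genes where PA+BMS was set against PA, and 6557 where PA+OA was the reference. The counts of 8 are therefore not particular to the enzymes. The counts of 4, 2 and 2 were not set beside such totals. The totals given next are those of the main fit. All tested genes called were 3272 in PA against control (795 to 5336 when a library was left out), 938 in PA+OA against PA (473 to 1946), 6463 in PA+BMS against PA (3687 to 7414), 4307 in PA+OA against control (2486 to 5029), 1306 in PA+BMS against control (654 to 2330) and 5878 in PA+BMS against PA+OA (3017 to 6290). The other settings moved these totals too. In the same order they gave 1599 (no filter) to 6723 (without both libraries) and 464 (only those groups) to 3016 (without both libraries). Next came 2750 (trend removed) to 7083 (block) and 2918 (filter at 5 FPKM) to 5242 (block). The last were 853 (that filter) to 2518 (trend removed with the block) and 2066 (only those groups) to 6557 (block). With 3 libraries a group and the spread pooled, the SE of a log2 change was 0.11 for PTDSS1, the lowest, and 0.22 for AGPAT2, the highest.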
